A study of Mus musculus with 6 samples.

Results

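The genes described here are 42 genes of retinal blood vessels, the blood-retina barrier and the cells that wrap capillaries, chosen by name and matched exactly to the gene symbols of the deposited tables. All 42 were among the 24346 symbols listed. They fall into 21 endothelial genes, 5 barrier genes, 3 leukocyte adhesion genes, 9 genes of pericytes or smooth muscle, and 4 genes of the VEGF and angiopoietin ligands. RNA of whole mouse retina was measured in 3 libraries of Unc119-/- mice, called knockout here, and in 3 libraries of Unc119+/+ mice, called wild type. UNC119 is a carrier of lipid-modified proteins, best known from photoreceptors. The sources used here do not give the kind of allele, the strain, age and sex of the animals or the number of retinas in a library. They also do not say whether each library came from a different animal, so the p-values rest on library-to-library spread that may be technical.

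Retinal neurons are fed from capillary layers in the inner retina and, on the photoreceptor side, from the choroid behind the pigment epithelium. Retinal endothelial cells are sealed by tight junctions that form the inner blood-retina barrier, and pericytes cover them densely. VEGF made by glia and neurons acts on receptors of the endothelium, angiopoietins act on the receptor TIE2, and adhesion molecules on the vessel wall hold passing leukocytes when tissue is inflamed.

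Values are FPKM, a fragment count corrected for the length of the transcript and the depth of the library, so levels of different genes can be set side by side per length. Genes with a mean of at least 0.5 FPKM over the 6 libraries were tested, and changes are given as log2 change of FPKM + 1 in the knockout against wild type, a scale that understates the change of genes of low level. Unc119 itself measured 510, 460 and 449 FPKM in knockout replicates 1, 2 and 3, against 1191, 1187 and 1206 FPKM in the wild-type replicates. Pax6, a transcription factor of inner retinal neurons, lay between 86.6 and 88.6 FPKM in knockout libraries and between 85.7 and 87.2 FPKM in wild-type libraries. Knockout replicate 3 stood apart by its lens RNA. The 12 lens markers summed to 230, 513 and 10896 FPKM in knockout replicates 1, 2 and 3, against 109, 667 and 0.795 FPKM in wild-type replicates 1, 2 and 3. By Xist and Ddx3y, knockout replicates 2 and 3 and wild-type replicate 3 were female and the others male, so some results are also given for males and females apart, each with only 1 library on 1 side.

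No vessel gene passed the test. Of the 42 genes, 37 reached 0.5 FPKM and were tested, and 0 were called by limma at an adjusted p under 0.05, where 0.233% of all 14176 genes tested were called. Over all genes tested, the calls higher in the knockout made up 0.205% and those lower in the knockout 0.0282%. At an unadjusted p under 0.05 there were 3 members, Icam1, Vcam1 and Mfsd2a, all higher in the knockout, where 9% of all genes tested reached it. All knockout libraries lay on the same side of all wild-type libraries for 4 of the 37, which were Icam1, Vcam1 and Flt4 with every knockout library above every wild-type library and Tie1 the other way round. That is 10.8% of the members, against 15.9% of all genes tested, where 7.83% were apart with the knockout higher and 8.04% with the knockout lower. The median log2 change of the 37 was 0.04, against -0.00174 over all genes tested, and 30 of them, or 81.1%, lay within 0.25 of no change, against 89.1% of all genes tested. Icam1, Myh11, Pgf and Vwf had a wild-type mean under 0.5 FPKM and passed the minimum only through their knockout values, which favours changes above 0.

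The class medians differed in size, with no test between them. The median log2 change was 0.28 over the 3 adhesion genes, 0.10 over the 7 tested pericyte or smooth muscle genes, 0.09 over the 5 barrier genes, 0.04 over the 4 VEGF and angiopoietin genes and 0.03 over the 18 tested endothelial genes. Relative to the wild-type mean, the adhesion median was 0.31, 0.33 and 0.21 in knockout replicates 1, 2 and 3, against -0.09, 0.09 and -0.01 in wild-type replicates 1, 2 and 3. A median of 3 genes is the value of 1 gene. It was that of Vcam1 for the change of 0.28 and in each knockout library, and that of Icam1 in each wild-type library. Icam2, the other adhesion gene, had a log2 change of 0.04. The endothelial median was 0.04, -0.000666 and 0.07 in the knockout libraries, against -0.05, 0.03 and 0.02 in the wild-type libraries. The pericyte or smooth muscle median was 0.00430, 0.07 and 0.33 in the knockout libraries, against 0.04, 0.02 and -0.05 in wild type, so it stood out in knockout replicate 3 alone. In whole retina, fewer cells of a type and less RNA per cell cannot be told apart.

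**Figure D1:**
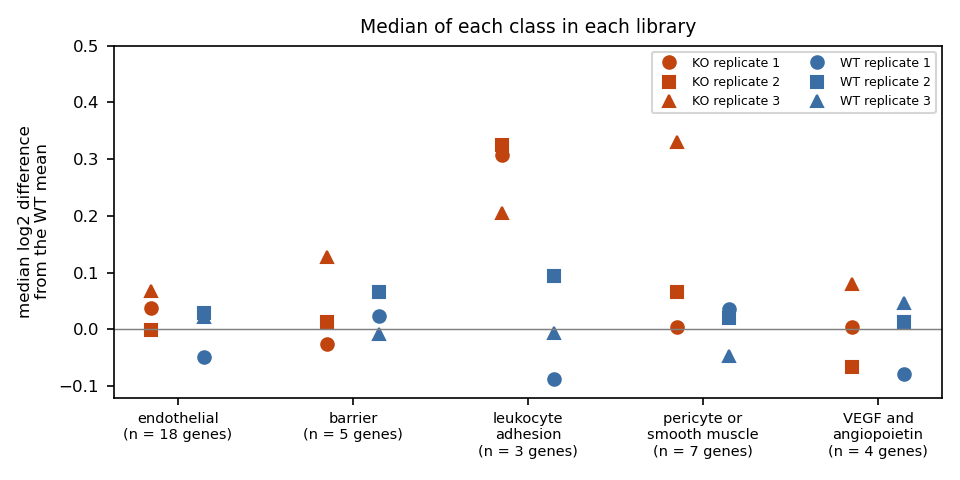
Median log2 difference from the wild-type mean over the tested genes of each class (y axis) in each library (points, with the symbol giving the replicate), with knockout left of wild type. The 3 knockout libraries lie above the wild-type libraries for the 3 adhesion genes, where each median is the value of 1 gene. Knockout replicate 3 lies apart from the others, at 0.33, for the 7 pericyte or smooth muscle genes.

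The growth factors of the vessel wall overlapped between genotypes and did not pass the test. Vegfa, the main ligand of vessel growth and permeability, was the most abundant ligand of the class and measured 53.5, 57.7 and 51.1 FPKM in knockout replicates 1, 2 and 3, against 47.1, 49.9 and 55.2 FPKM in wild-type replicates 1, 2 and 3. The genotypes overlapped, and the log2 change was 0.09 with a 95% interval of -0.07 to 0.26 (limma adjusted p = 0.716). Vegfb, a ligand of the receptor FLT1, averaged 28.1 ± 2.75 FPKM in the knockout and 28.1 ± 1.78 FPKM in wild type (SD, n = 3 each), with a log2 change of -0.00642 and an interval of -0.19 to 0.18. Angpt2, a ligand that can block TIE2 and loosen the hold of pericytes, averaged 1.34 ± 0.206 FPKM in the knockout and 1.58 ± 0.113 FPKM in wild type. Pgf, placental growth factor, another FLT1 ligand, was listed at 0.667, 0.287 and 1.46 FPKM in knockout replicates 1, 2 and 3, against 0.350, 0.468 and 0.444 FPKM in wild type. Its highest value was in knockout replicate 3, while knockout replicate 2 was below every wild-type library.

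The receptors ranged from abundant to barely above the test minimum. Kdr, the main signalling receptor for VEGF-A, was the most abundant endothelial member, at 55.9, 52.0 and 55.3 FPKM in knockout replicates 1, 2 and 3, against 52.3, 55.6 and 47.1 FPKM in wild type. The groups overlapped, with a log2 change of 0.08 and an interval of -0.08 to 0.23 (limma adjusted p = 0.751). Its level over the 6 libraries, 53.0 FPKM, was far above that of Cdh5, the cadherin of endothelial junctions, at 1.18 FPKM, or Pecam1, the endothelial adhesion protein CD31, at 2.50 FPKM. The part of endothelial and of other retinal cells in the values of Kdr was not tested. Flt1, a VEGF receptor that also acts as a decoy, averaged 11.8 ± 0.518 FPKM in the knockout and 12.1 ± 0.612 FPKM in wild type (SD, n = 3 each).

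Flt4, the receptor for VEGF-C, measured 0.873, 0.830 and 0.893 FPKM in knockout replicates 1, 2 and 3, against 0.607, 0.751 and 0.658 FPKM in wild-type replicates 1, 2 and 3. All knockout values were above all wild-type values, by 0.16 on the log2 scale with an interval of -0.14 to 0.46 (limma adjusted p = 0.731). Tie1, a partner receptor of TIE2, measured 0.615, 0.436 and 0.667 FPKM in the knockout libraries, against 0.887, 0.745 and 0.883 FPKM in the wild-type libraries. It was lower in each knockout library, by a log2 change of -0.23 with an interval of -0.55 to 0.10 (limma adjusted p = 0.660). For a single gene the exact permutation test of 3 against 3 cannot go below 0.1, which Flt4, Tie1, Icam1 and Vcam1 each reached. Tek, which encodes TIE2 itself, overlapped, at 1.31 to 1.63 FPKM in the knockout and 1.35 to 1.85 FPKM in wild type.

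The genotypes of the other endothelial surface and secreted genes overlapped. Podxl, a sialomucin of the vessel lumen that other cells also make, averaged 41.6 ± 0.974 FPKM in the knockout and 40.9 ± 1.79 FPKM in wild type (SD, n = 3 each), and Pecam1 averaged 2.56 ± 0.282 and 2.44 ± 0.202 FPKM in the same order. Cdh5 measured 0.774, 0.671 and 1.71 FPKM in knockout replicates 1, 2 and 3, against 1.03, 1.91 and 0.981 FPKM in wild type. Its knockout replicates 1 and 2 were below every wild-type library and knockout replicate 3 was not, so the log2 change of -0.18 had a wide interval of -0.72 to 0.36. Plvap, which forms the diaphragm of fenestrated capillaries such as those of the choroid and is silenced where a barrier forms, averaged 4.68 ± 0.366 FPKM in the knockout and 4.80 ± 0.405 FPKM in wild type. Its log2 change was -0.03 with an interval of -0.26 to 0.20.

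Of the 18 tested endothelial genes, 10 had a log2 change above 0 and 8 below, from -0.23 for Tie1 to 0.21 for Ly6c1, and all 18 lay within 0.25 of no change. Ly6c1, a surface protein of endothelium and some monocytes with a near copy in the genome, averaged 8.19 ± 1.11 FPKM in the knockout and 6.96 ± 1.14 FPKM in wild type (SD, n = 3 each), and its genotypes overlapped. Egfl7, a secreted endothelial matrix protein, averaged 4.56 ± 0.855 FPKM in the knockout and 3.83 ± 0.275 FPKM in wild type. Esam, an adhesion protein of endothelial junctions, Eng, a TGF-beta co-receptor, and Emcn, a mucin of the vessel surface, had log2 changes of 0.09, 0.04 and -0.03. Ramp2, a partner of the adrenomedullin receptor, shares 33.4% of its annotated exon bases with Vps25 on the same strand, so its values of 2.82 ± 0.0606 FPKM in the knockout and 2.78 ± 0.721 FPKM in wild type may hold fragments of both. Vwf, the clotting factor stored in endothelium, was just above the test minimum at a mean of 0.507 FPKM.

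Transcription factors of the endothelium were near the lowest level tested. Ets1, an ETS factor, averaged 0.805 ± 0.235 FPKM in the knockout and 1.07 ± 0.172 FPKM in wild type, and Sox18, a SOX factor, 0.741 ± 0.398 FPKM in the knockout and 0.934 ± 0.411 FPKM in wild type (SD, n = 3 each). The ETS factor Erg, the SOX factor Sox17 and the guidance receptor Robo4 stayed under the minimum, with means of 0.404, 0.458 and 0.479 FPKM over the 6 libraries, as did 2 genes of the mural class, Cspg4 at 0.211 FPKM and Des at 0.424 FPKM. These 5 were not tested, and the genotypes of each overlapped.

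**Figure D2:**
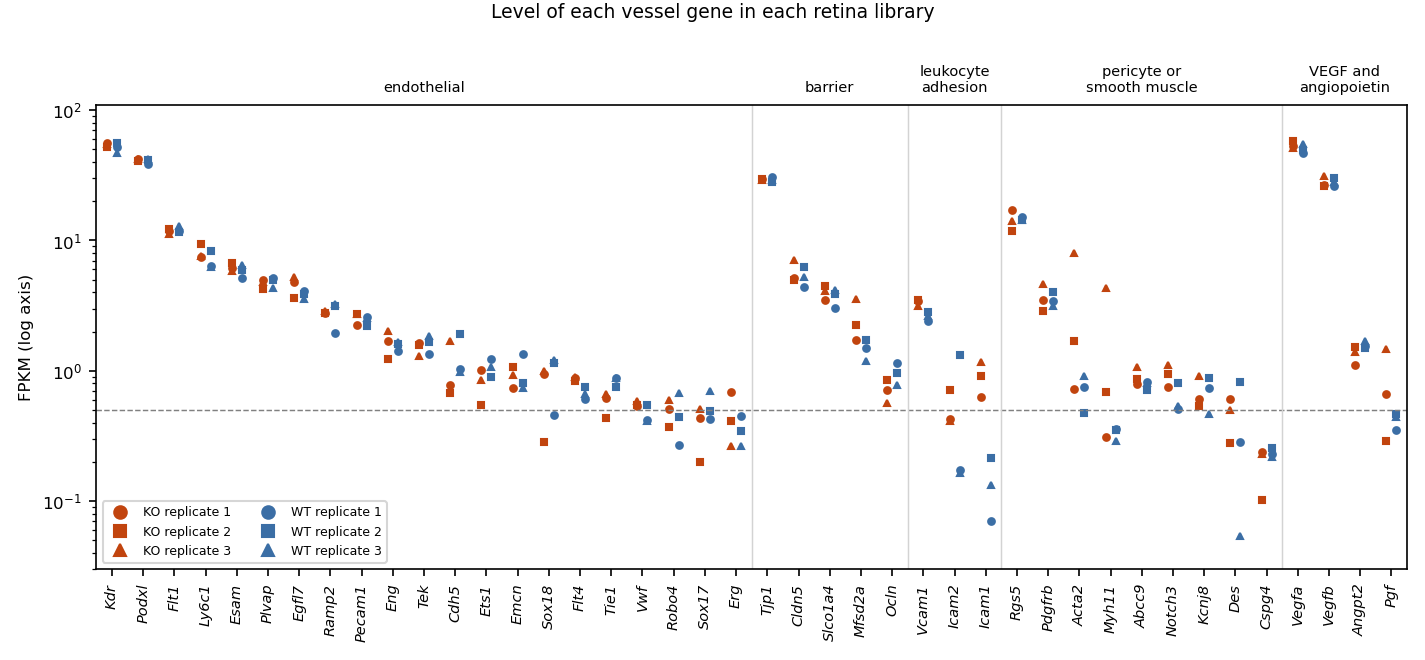
FPKM on a log axis of the 42 genes (x axis, grouped by class and ordered by mean level) in each library, knockout left of wild type, with the symbol giving the replicate and a dashed line at the test minimum of 0.5 FPKM. Most genes overlap between genotypes, Icam1 does not, and Acta2 and Myh11 are far higher in knockout replicate 3 than in the other libraries.

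The junction and transport genes of the barrier did not pass the test. Tjp1, the scaffold protein ZO-1 that neural and glial junctions also use, was the most abundant, at 29.9, 29.8 and 29.2 FPKM in knockout replicates 1, 2 and 3, against 31.0, 28.2 and 29.4 FPKM in wild type. Its values overlapped and its interval was among the narrow ones, with a log2 change of 0.00539 and bounds of -0.12 and 0.13. Cldn5, the claudin that seals endothelial tight junctions, measured 5.15, 4.95 and 7.13 FPKM in the knockout libraries, against 4.43, 6.25 and 5.22 FPKM in the wild-type libraries, with a log2 change of 0.09 and an interval of -0.26 to 0.45. Ocln, the junction protein occludin, averaged 0.708 ± 0.144 FPKM in the knockout and 0.959 ± 0.185 FPKM in wild type (SD, n = 3 each), a log2 change of -0.20 with an interval of -0.54 to 0.14. Slco1a4, an organic anion transporter of barrier endothelium that belongs to a family of close relatives, averaged 4.03 ± 0.510 FPKM in the knockout and 3.70 ± 0.607 FPKM in wild type.

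Mfsd2a, a carrier of lipids that keeps endothelial transcytosis low, measured 1.71, 2.26 and 3.58 FPKM in knockout replicates 1, 2 and 3, against 1.51, 1.72 and 1.19 FPKM in wild-type replicates 1, 2 and 3. Knockout replicate 1 lay below wild-type replicate 2, and knockout replicate 3 was the highest. The log2 change was 0.48 with an interval of 0.01 to 0.94, and it did not pass after adjustment over all genes (limma adjusted p = 0.549). It was 0.05 within males and 0.82 within females, and without knockout replicate 3 it was 0.27 (adjusted p = 0.747). The pigment epithelium also uses this carrier. The 10 pigment epithelium markers summed to 26.0 to 104.5 FPKM in the knockout libraries, with the highest sum in knockout replicate 3, and to 34.0 to 57.6 FPKM in wild type, while the genotypes of 0 of the 10 were apart. Of the 10, Tyrp1, Tyr, Pmel, Mlana and Rdh5 were highest in knockout replicate 3, and Rpe65, Ttr, Rgr and Lrat in knockout replicate 2. Best1, another of the 10, was at or near 0 throughout. The part of pigment epithelium cells in the values of Mfsd2a was not tested.

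Both inducible adhesion molecules were higher in every knockout library than in every wild-type library, and neither passed the test over all genes. Icam1 (ENSMUSG00000037405.8, chromosome 9, 21015985 to 21028817, plus strand, protein coding) encodes the receptor on which leukocyte integrins of the beta-2 family hold. It measured 0.626, 0.915 and 1.16 FPKM in knockout replicates 1, 2 and 3, against 0.0698, 0.213 and 0.132 FPKM in wild-type replicates 1, 2 and 3. The lowest knockout value was well above the highest wild-type value, and the knockout mean was 6.51 times the wild-type mean. On the log2 scale of FPKM + 1 the change was 0.73 with a standard error of 0.17 and an interval of 0.35 to 1.11 (limma adjusted p = 0.245). Icam1 passed the minimum of 0.5 FPKM only through its knockout values, and without any minimum the adjusted p was 0.152. Within males the change was 0.51 and within females 0.85, and without knockout replicate 3 it was 0.63 (adjusted p = 0.426). Icam1 shares 11.7% of its exon bases with the antisense gene Gm47079, which the tables do not list, and whether fragments were counted by strand is unknown here.

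Vcam1 (ENSMUSG00000027962.14, chromosome 3, 116109949 to 116129688, minus strand, protein coding) encodes the receptor for the integrin VLA-4 on leukocytes. It measured 3.46, 3.51 and 3.15 FPKM in knockout replicates 1, 2 and 3, against 2.40, 2.80 and 2.61 FPKM in wild-type replicates 1, 2 and 3. The groups were apart by a small step, with a mean of 3.37 ± 0.194 FPKM in the knockout and 2.61 ± 0.203 FPKM in wild type (SD, n = 3 each). On the log2 scale it was higher by 0.28 with an interval of 0.04 to 0.52 (limma adjusted p = 0.499), and it was 0.31 within males and 0.26 within females. Knockout replicate 3, the highest library for Icam1, was the lowest knockout library for Vcam1. Icam2, which endothelium makes without induction, overlapped, at 0.425, 0.711 and 0.412 FPKM in the knockout and 0.173, 1.32 and 0.165 FPKM in wild type. Wild-type replicate 2 was the highest of all 6, and the log2 change of 0.04 had an interval of -0.61 to 0.69. On the FPKM scale its mean was the other way, 0.516 ± 0.169 FPKM in the knockout and 0.554 ± 0.667 FPKM in wild type (SD, n = 3 each).

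Microglia and Müller glia can also make ICAM1 or VCAM1. The 12 microglia markers summed to 82.0 to 98.7 FPKM in the knockout libraries, against 53.9 to 57.3 FPKM in the wild-type libraries, and 9 of the 12 had every knockout library above every wild-type library, where 7.83% of all genes tested did. Gfap, a gene of astrocytes and reactive Müller glia, rose to 16.1 ± 0.929 FPKM in the knockout, against 7.96 ± 0.644 FPKM in wild type (SD, n = 3 each), a log2 change of 0.93 (limma adjusted p = 0.00447). Gfap was 1 of 9 markers of optic nerve glia, and the 6 of them tested all had a log2 change above 0. Of the 6, Gfap and Aqp4 were apart with the knockout higher, as were 7.83% of all genes tested. Aqp4 measured 28.4 to 30.0 FPKM in the knockout and 25.4 to 28.3 FPKM in wild type, a log2 change of 0.09 (limma adjusted p = 0.667). S100b of the same list overlapped, with a log2 change of 0.33 (limma adjusted p = 0.539). The Müller glia genes Glul and Rlbp1 went the other way, each with a log2 change of -0.11 (limma adjusted p = 0.522 and 0.576). Glul was at 787 to 801 FPKM in the knockout and 831 to 892 FPKM in wild type, apart with the knockout lower, as were 8.04% of all genes tested. Rlbp1 overlapped. The part of microglia and glia in the values of Icam1 and Vcam1 was not tested.

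**Figure D3:**
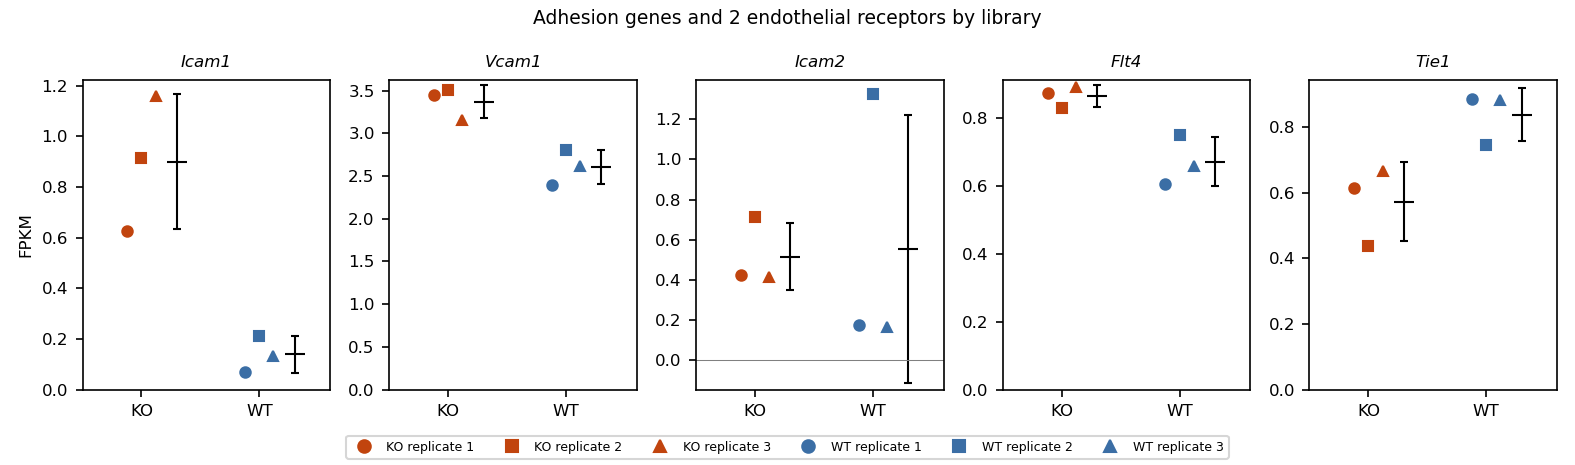
FPKM of the 3 adhesion genes and of the receptors Flt4 and Tie1 in each library (points, with the symbol giving the replicate), with the mean and SD in black beside them (n = 3 each). Knockout libraries lie above wild-type libraries for Icam1, Vcam1 and Flt4, below them for Tie1, and among them for Icam2, where wild-type replicate 2 is at 1.32 FPKM.

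By its title the study is about inflammatory signalling through JAK-STAT and NF-kB, so the promoters of the members were read for letters that factors of both can bind. RefSeq promoters on GRCm38.p6, each of 250 bases before to 50 bases after a gene start, were found for 27 of the 42 members, in 35 windows. Both strands were searched for TTCNNNGAA, the pattern of STAT sites, for the kB consensus by its name, for the looser kB-like pattern GGANNNTCC, and for the CArG box, the site of serum response factor in smooth muscle genes. The looser pattern was added after the Icam1 promoter had been read. TTCNNNGAA was in 2 of the 35 windows, those of Icam1 and Notch3, against 8.30% of all 32851 promoter windows. GGANNNTCC was in 6 of the 35 windows, that of Icam1 among them, against 8.62% of all windows. The kB consensus was in 6 of the 35 windows, of Kdr, Flt1 and Vegfa among others, against 8.46% of all windows. It overlapped the looser pattern at 2 places, both in Abcc9. A match is a run of letters and not a site in use.

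The 2 members with TTCNNNGAA are shown with their matches in capitals, 5′ to 3′. The Icam1 window (chr9:21015690-21015989, plus strand) holds GGAAATTCC at positions -153 to -145 and TTCCCGGAA at positions -42 to -34, where -1 is the last base before the start. The Notch3 window (chr17:32166841-32167140, minus strand) holds TTCGGCGAA at positions 3 to 11, where 1 is the first base from the start on. Positions count from the RefSeq start of each window, which for Icam1, Notch3 and Acta2 is not the GENCODE start of the gene.
Icam1: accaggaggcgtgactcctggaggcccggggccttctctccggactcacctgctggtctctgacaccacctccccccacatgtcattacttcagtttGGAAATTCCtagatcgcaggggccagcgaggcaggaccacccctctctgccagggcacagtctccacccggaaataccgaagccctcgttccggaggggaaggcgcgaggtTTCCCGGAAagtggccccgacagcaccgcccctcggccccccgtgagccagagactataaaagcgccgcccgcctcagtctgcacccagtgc
Notch3: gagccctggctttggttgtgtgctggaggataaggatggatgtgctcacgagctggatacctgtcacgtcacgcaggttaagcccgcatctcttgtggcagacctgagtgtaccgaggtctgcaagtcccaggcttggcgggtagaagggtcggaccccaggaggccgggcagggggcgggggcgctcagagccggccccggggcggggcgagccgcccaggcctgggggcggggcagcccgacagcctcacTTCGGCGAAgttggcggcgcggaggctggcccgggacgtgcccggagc

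Notch3, the Notch receptor of mural cells, measured 0.756, 0.950 and 1.10 FPKM in knockout replicates 1, 2 and 3, against 0.506, 0.804 and 0.539 FPKM in wild-type replicates 1, 2 and 3. Knockout replicate 1 lay below wild-type replicate 2, so the groups overlapped. The log2 change was 0.26 with an interval of -0.09 to 0.61 (limma adjusted p = 0.640).

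The genotypes of the pericyte members Rgs5, Pdgfrb, Kcnj8 and Abcc9 overlapped, while the contractile genes Acta2 and Myh11 were high in knockout replicate 3. Rgs5, a regulator of G protein signalling typical of pericytes and the most abundant gene of the class, measured 17.1, 11.9 and 14.1 FPKM in knockout replicates 1, 2 and 3, against 15.1, 14.5 and 14.4 FPKM in wild type. The knockout libraries spread on both sides of wild type, and the log2 change was -0.04 with an interval of -0.31 to 0.23 (limma adjusted p = 0.936). Pdgfrb, the receptor by which pericytes are recruited, averaged 3.68 ± 0.898 FPKM in the knockout and 3.52 ± 0.431 FPKM in wild type (SD, n = 3 each), with an interval of -0.32 to 0.39. Kcnj8 and Abcc9 encode the pore and the sulfonylurea receptor of the potassium channel of pericytes and lie 16247 bases apart on the minus strand of chromosome 6. Kcnj8 averaged 0.684 ± 0.199 FPKM in the knockout and 0.694 ± 0.209 FPKM in wild type, and Abcc9 0.905 ± 0.145 FPKM in the knockout and 0.780 ± 0.0564 FPKM in wild type.

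Acta2 (ENSMUSG00000035783.9, chromosome 19, 34241090 to 34255590, minus strand, protein coding) encodes smooth muscle actin. It measured 0.730, 1.69 and 8.06 FPKM in knockout replicates 1, 2 and 3, against 0.757, 0.473 and 0.914 FPKM in wild-type replicates 1, 2 and 3. Knockout replicate 1 lay among the wild-type libraries, and knockout replicate 3 was above all others. The log2 change of 1.03 had an interval of -0.20 to 2.26 (limma adjusted p = 0.610), and it was 0.34 without knockout replicate 3, 0.10 within males and 1.37 within females. Myh11 (ENSMUSG00000018830.10, chromosome 16, 14194535 to 14291372, minus strand, protein coding), the smooth muscle myosin heavy chain, measured 0.312, 0.690 and 4.35 FPKM in the knockout libraries, against 0.357, 0.351 and 0.290 FPKM in the wild-type libraries. It had the same order of knockout libraries as Acta2, with a log2 change of 0.78 and an interval of -0.30 to 1.85 (limma adjusted p = 0.648). Without knockout replicate 3 its change was 0.16, and within males and females -0.05 and 1.22.

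Some markers of other eye tissue were high in the same library. The 9 fibroblast and sclera markers summed to 6.13, 7.22 and 31.9 FPKM in knockout replicates 1, 2 and 3, against 5.37 to 6.02 FPKM in the wild-type libraries. Of the 9, 4 had a mean under 0.5 FPKM, with Kera at 0 in every library, and 5 were tested. Pdgfra and Fmod, 2 of these 5, were apart with the knockout higher, as were 7.83% of all genes tested. Pmel, a pigment cell gene, measured 1.17, 3.60 and 17.8 FPKM in the knockout libraries, against 0.930 to 1.20 FPKM in wild type. The pigment epithelium markers Rpe65, Ttr, Rgr and Lrat were instead highest in knockout replicate 2. Rpe65 measured 3.16, 14.1 and 8.73 FPKM in the knockout libraries, against 3.78, 9.25 and 8.11 FPKM in wild type. The 9 markers of striated eye muscle did not follow, with sums of 4.83 to 9.92 FPKM in the knockout and 7.58 to 11.6 FPKM in wild type. In a fit with a term for lens RNA, the log2 change was 0.32 for Acta2 and 0.05 for Myh11. That term is itself highest in knockout replicate 3, so it takes up differences of that library whatever their source. The part of such tissue in the values of Acta2 and Myh11 was not tested.

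**Figure D4:**
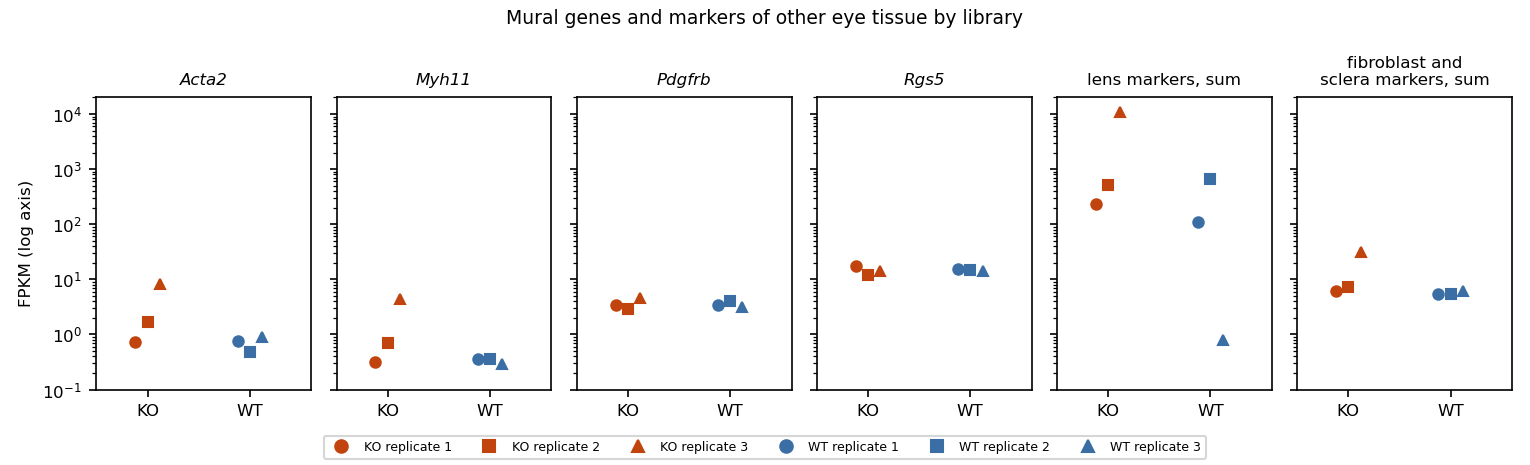
FPKM on a shared log axis of 4 mural genes and of the summed lens markers and the summed fibroblast and sclera markers in each library (points, with the symbol giving the replicate), knockout left of wild type. Knockout replicate 3 is the highest library for Acta2, Myh11, Pdgfrb and both marker sums, and knockout replicate 1 is the highest for Rgs5.

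The Acta2 promoter is shown because smooth muscle contractile genes are classically driven through CArG boxes. None of the 27 members searched, Myh11 not among them, held the exact box, which was in 1.63% of all windows. A form with 1 of its 6 middle bases free to be other than A or T was chosen after the promoter had been read. It was in 7 of the 35 member windows, each of a different member, against 9.98% of all windows. Acta2 (chr19:34255324-34255623, minus strand) was the one of the 7 with more than 1 such match, in capitals. They lie at positions -84 to -75 and -34 to -25 from the RefSeq start. The GENCODE gene begins farther upstream, at 34255590, so both matches fall inside its span.
Acta2: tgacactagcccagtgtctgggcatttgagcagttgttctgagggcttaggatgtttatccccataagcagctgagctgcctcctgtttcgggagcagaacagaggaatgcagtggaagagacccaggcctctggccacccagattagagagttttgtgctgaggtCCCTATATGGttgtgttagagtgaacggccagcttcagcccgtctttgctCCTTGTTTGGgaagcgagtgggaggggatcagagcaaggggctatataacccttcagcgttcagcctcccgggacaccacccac

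**Figure D5:**
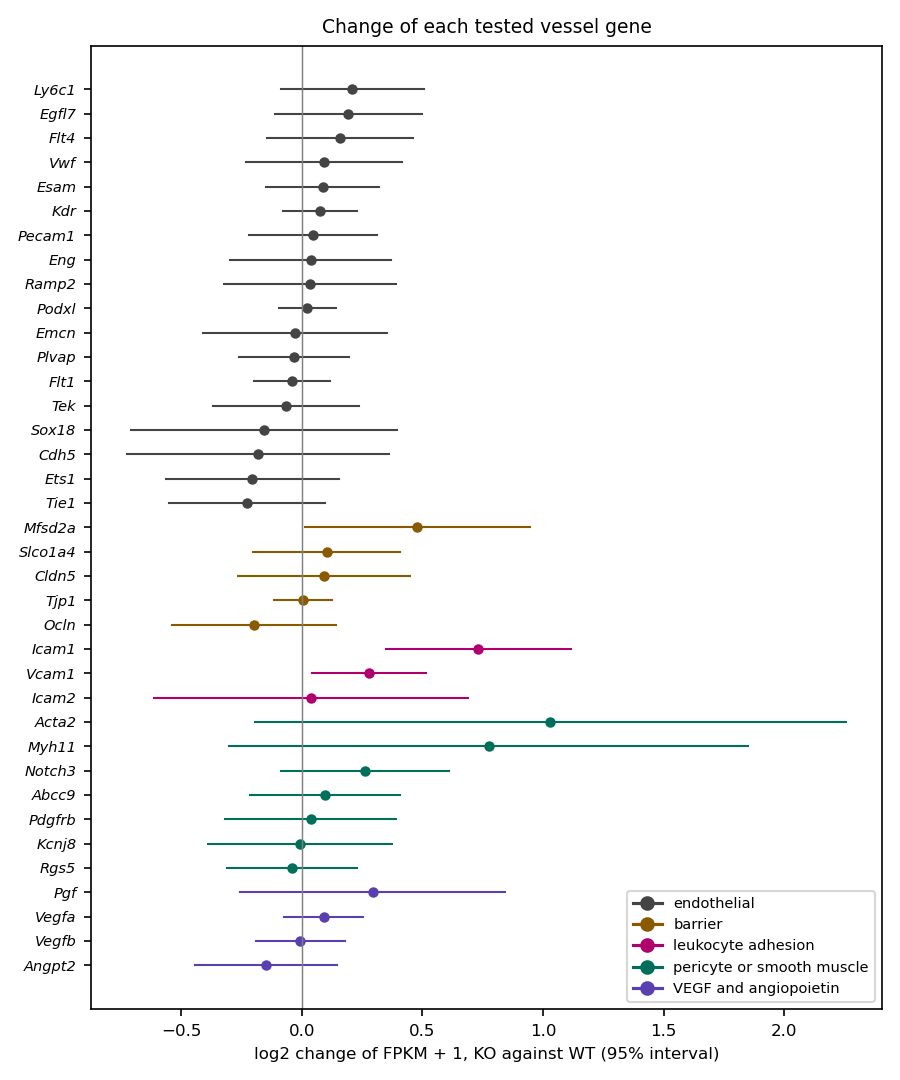
Log2 change of FPKM + 1 in the knockout against wild type (points) with the 95% interval from limma (lines) for the 37 tested genes, coloured by class. The intervals of Icam1, Vcam1 and Mfsd2a lie above 0 before adjustment, those of Acta2 and Myh11 are the widest, and the other intervals span 0.

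Further genes of vessels and their signals were described beside the members. Of 75 such symbols in 6 lists, 74 were listed and 57 tested. The symbol not listed was Vegfd, another name of the listed Figf. Of the 57, 0 passed limma's test after adjustment over all genes. At an unadjusted p under 0.05 there were 7, 6 higher in the knockout and 1 lower, where 9% of all genes tested reached it. The lower one was Slc16a1, a lactate transporter, at 49.8 ± 9.02 FPKM in the knockout and 61.3 ± 4.49 FPKM in wild type (SD, n = 3 each), a log2 change of -0.31 (limma adjusted p = 0.522). For 13 of the 57, which is 22.8%, the genotypes were apart, and the knockout was the higher in all 13. Foxf2 and Tpm2, among the 13, and Lef1, Smad6 and Ndufa4l2, among the rest of the 57, passed the minimum only through their knockout values. Figf, apart with the knockout lower, had a wild-type mean of 0.554 FPKM and was left out by the same minimum. The count of 13 and the median of the 57 therefore lean towards changes above 0. Over all genes tested, 15.9% were apart in either direction and 7.83% with the knockout higher. The median log2 change of the 57 was 0.11. Knockout replicate 3 was again the library farthest from wild type, with a median difference of 0.19 from the wild-type mean, against 0.04 and 0.06 in knockout replicates 1 and 2.

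Of the further VEGF, angiopoietin and hypoxia genes 7 were tested and the genotypes of 0 were apart, against 15.9% of all genes tested. Hif1a, the hypoxia factor and the most abundant, averaged 186 ± 6.81 FPKM in the knockout and 185 ± 9.79 FPKM in wild type (SD, n = 3 each). The VEGF co-receptor Nrp1 averaged 2.85 ± 0.510 FPKM in the knockout and 2.86 ± 0.438 FPKM in wild type. Figf and Angptl4 of this list stayed under the minimum and were not tested, though their genotypes were apart. Figf was lower in the knockout, at 0.262 ± 0.128 FPKM against 0.554 ± 0.126 FPKM in wild type. Angptl4 was higher, at 0.336 ± 0.0477 FPKM against 0.145 ± 0.144 FPKM. Of the 10 genes of Norrin and Wnt signalling, which Müller glia use to induce and keep the barrier, only Ndp had its genotypes apart. That is 10%, against 15.9% of all genes tested. Ndp, which encodes Norrin, measured 4.14, 4.31 and 4.68 FPKM in knockout replicates 1, 2 and 3, against 3.94, 3.94 and 3.65 FPKM in wild-type replicates 1, 2 and 3, a log2 change of 0.15 with an interval of -0.06 to 0.36 (limma adjusted p = 0.659). Ctnnb1, the beta-catenin of the pathway and its most abundant gene, averaged 122 ± 1.29 FPKM in the knockout and 120 ± 1.72 FPKM in wild type (SD, n = 3 each). Fzd4, the receptor of Norrin, averaged 4.58 ± 0.484 FPKM in the knockout and 4.48 ± 0.478 FPKM in wild type.

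Of 14 further junction and transport genes the genotypes of 3 were apart, or 21.4%, against 15.9% of all genes tested. Mfge8, a bridging protein for engulfment and the most abundant of them, measured 168, 172 and 174 FPKM in knockout replicates 1, 2 and 3, against 144, 157 and 144 FPKM in wild type, a log2 change of 0.21 with an interval of 0.10 to 0.32 (limma adjusted p = 0.268). Lsr, a protein of tricellular junctions, averaged 2.12 ± 0.0967 FPKM in the knockout and 1.65 ± 0.0892 FPKM in wild type, and Cgn, the junction protein cingulin, 5.96 ± 0.982 FPKM in the knockout and 5.03 ± 0.211 FPKM in wild type (SD, n = 3 each). The glucose transporter Slc2a1 was at 68.2, 66.5 and 93.2 FPKM in the knockout libraries, against 65.2 to 69.6 FPKM in wild type, so that its difference lay in knockout replicate 3.

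Among 12 tested genes of Notch, BMP and sphingosine phosphate signalling, Notch1 and its target Hey1 had their genotypes apart. That is 16.7% of the list, close to the 15.9% of all genes tested. Both were higher in the knockout, as were 7.83% of all genes tested. Hey1 averaged 6.50 ± 0.198 FPKM in the knockout and 5.41 ± 0.402 FPKM in wild type, with a log2 change of 0.23 and an interval of 0.03 to 0.42 (limma adjusted p = 0.499), and Notch1 averaged 5.45 ± 0.541 FPKM in the knockout and 4.69 ± 0.337 FPKM in wild type (SD, n = 3 each). Jag1, a Notch ligand and the most abundant of the list, averaged 28.2 ± 3.07 FPKM in the knockout and 31.3 ± 2.50 FPKM in wild type.

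Of the partners of the adhesion molecules, 4 were tested and 2 had their genotypes apart, both with the knockout higher. Over all genes tested, 15.9% were apart in either direction and 7.83% with the knockout higher. Itga4, the alpha chain of the VCAM1 receptor VLA-4, measured 44.8, 44.9 and 41.3 FPKM in knockout replicates 1, 2 and 3, against 37.8, 34.4 and 40.2 FPKM in wild type, a log2 change of 0.22 with an interval of 0.06 to 0.37 (limma adjusted p = 0.436). Its level was far above that of Itgb2, the leukocyte integrin beta chain that binds ICAM1, which averaged 0.563 ± 0.0829 FPKM in the knockout and 0.380 ± 0.199 FPKM in wild type and was not tested. Selplg, the selectin ligand of leukocytes, averaged 1.66 ± 0.304 FPKM in the knockout and 1.13 ± 0.0845 FPKM in wild type (SD, n = 3 each). The endothelial selectins were nearly or wholly without values, with Selp at 0 in every library and Sele at 0 in every knockout library and at most 0.0602 FPKM in wild type.

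The further mural genes had a median log2 change of 0.31 over 11 tested genes. All 11 were above 0, where 6987 of the 14176 genes tested were. Tpm2, Foxf2 and Ndufa4l2 passed the minimum of 0.5 FPKM only through their knockout values, so the median and the counts of this list lean towards changes above 0. The genotypes of 5 of the 11 were apart, where 7.83% of all genes tested were apart with the knockout higher. Those 5 were Vtn, Foxf2, Lmod1, Smtn and Tpm2. Vtn, the matrix protein vitronectin, which photoreceptors also make, was the most abundant at 496 ± 9.01 FPKM in the knockout and 458 ± 7.74 FPKM in wild type (SD, n = 3 each), a log2 change of 0.11 (limma adjusted p = 0.487). Tpm2, a tropomyosin of muscle, measured 0.656, 0.945 and 1.81 FPKM in knockout replicates 1, 2 and 3, against 0.505, 0.329 and 0.387 FPKM in wild type. Lmod1, leiomodin of smooth muscle, averaged 2.86 ± 0.0602 FPKM in the knockout and 2.31 ± 0.115 FPKM in wild type. It did not share the high value of Acta2 in knockout replicate 3. Tagln, Myl9 and Ndufa4l2 did, at 6.997, 18.2 and 5.76 FPKM in that library. Their highest values in the other libraries were 3.53, 7.13 and 1.01 FPKM. Tpm2 and Smtn were also highest in knockout replicate 3, while Vtn, Foxf2, Higd1b, Mcam and Ednrb were not. Relative to the wild-type mean, the median of the list was 0.14, 0.38 and 0.28 in knockout replicates 1, 2 and 3. Smtn, smoothelin, measured 2.12, 2.13 and 3.04 FPKM in the knockout, against 1.32, 2.03 and 1.97 FPKM in wild type, and Foxf2, a pericyte transcription factor, averaged 0.733 ± 0.169 FPKM in the knockout and 0.477 ± 0.0657 FPKM in wild type. Higd1b, a marker of capillary pericytes, measured 2.25, 4.02 and 0.971 FPKM in the knockout libraries, against 0.613, 1.40 and 0.872 FPKM in wild type, with its highest value in knockout replicate 2.

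Without knockout replicate 3, the genotypes of 5 of the 37 members did not overlap, where 24.4% of all genes tested did so. They were Icam1, Vcam1 and Flt4, higher in both knockout libraries, and Tie1 and Cdh5, lower in both. The median log2 change was then 0.32 over the adhesion genes, 0.04 over the pericyte or smooth muscle genes and 0.00204 over the endothelial genes.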

How the data were processed

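The submitters' processing notes name TopHat2 2.1.1, Cuffdiff 2.2.1 and the genome build mm10; per the labels, libraries came from a stranded mRNA kit. The authors deposited 1 FPKM table per library, per the file headers; the annotation, the strand setting and the scaling between libraries are unknown here. FPKM are not counts, so absolute depth is unknown. Relative depth, read from the commonest ratio of genes of at most 0.3 FPKM (within 0.015 log2 units) to wild-type replicate 2, was 0.763 to 1 in wild type and 0.931 to 0.964 in the knockout, so low genes were least precise in wild-type replicates 1 and 3.

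Genes with a mean of at least 0.5 FPKM (14176 of 24346) were tested on log2(FPKM + 1) with limma 3.58.1 in R 4.3.3, with a mean-variance trend. Tests were two-sided, and p-values were adjusted by Benjamini-Hochberg over the genes tested, with a threshold of 0.05. The fit was tested on simulated data. Python 3.11.15 with pandas 2.3.3, scipy 1.17.1 and matplotlib 3.10.9 did the rest. Coordinates are GENCODE vM21 (GRCm38, the assembly of mm10) and promoters RefSeq. Members and lists were chosen with earlier results of these data known. Members past the test or with genotypes apart, and the most abundant of each class, are given by library. Mfsd2a, Acta2, Myh11, Cldn5, Cdh5, Pgf, Notch3 and Icam2 were added after their values were seen. So were, outside the class genes, Slc2a1, Higd1b, Nrp1, Fzd4, Itgb2, Sele, Selp, Gfap, Glul, Rlbp1, Figf, Angptl4 and the named pigment epithelium markers, Pmel among them. Aqp4, S100b, Tagln, Myl9, Ndufa4l2, Pdgfra and Fmod were added in the same way. Alternatives were another pseudocount (0.1), no or a stricter minimum (2 FPKM), 2 scalings, a replicate block, sex and lens terms, and leaving out each library.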

Additional observations from a re-analysis of the deposited data

How the results depend on the processing

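No member passed limma's test under any of the 14 alternatives; the lowest adjusted p of a member was 0.152, for Icam1 with no minimum, and that of Icam1 ranged up to 0.834 with the lens term. The count of all genes called higher was 29, against 13 with the replicate block, 17 with a sex term, 5 with the lens term and 9 to 14 leaving out 1 library; that of genes called lower was 4, against 2 with no minimum, with the replicate block, with a sex term or with the lens term and 2 to 4 leaving out 1 library. Same-numbered libraries of the genotypes did not deviate together (correlations of 0.07, -0.09 and -0.12 for numbers 1, 2 and 3), so the numbers were not taken as pairs. With the replicate block 0 members were called by limma, with a lowest adjusted p of 0.436. Icam1 depended most on the pseudocount, with a log2 change of 2.08 at 0.1. The class medians moved past their spread between libraries in a few settings. The endothelial median was -0.0342 with quantile normalization, and 0.00146 to 0.0415 leaving out 1 library. The barrier median was 0.0255 with a sex term, 0.0297 with the lens term and -0.00526 to 0.15 leaving out 1 library. The adhesion median was 0.36 with pseudocount 0.1 and 0.24 to 0.37 leaving out 1 library. The VEGF and angiopoietin median was -0.0357 with the lens term. The cause of these moves was not tested.

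The sign turned in some setting for 17 of the 37 members, all with a log2 change of at most 0.16 in size and none called. With quantile normalization it was -0.0285 for Pecam1, -0.0313 for Eng, -0.0372 for Ramp2, -0.0679 for Icam2 and -0.0214 for Pdgfrb. With a sex term it was -0.0143 for Ramp2, 0.0171 for Plvap, 0.0279 for Rgs5 and 0.0259 for Kcnj8. With the lens term it was 0.0260 for Flt1, 0.0332 for Tek, -0.0472 for Eng, -0.12 for Cldn5, -0.19 for Icam2 and -0.18 for Pdgfrb. Leaving out 1 library, it ranged from -0.00202 to 0.11 for Pecam1, -0.0632 to 0.15 for Eng, -0.11 to 0.10 for Emcn, -0.13 to 0.13 for Ramp2, -0.0893 to 0.0206 for Plvap, -0.35 to 0.0509 for Sox18, -0.0107 to 0.0496 for Podxl, -0.0486 to 0.20 for Cldn5, -0.0253 to 0.0393 for Tjp1, -0.00526 to 0.18 for Slco1a4, -0.13 to 0.37 for Icam2, -0.11 to 0.16 for Pdgfrb, -0.17 to 0.0803 for Rgs5, -0.11 to 0.0697 for Kcnj8 and -0.0829 to 0.0386 for Vegfb.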
